A study of Mus musculus with 10 samples.

Results

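Krüppel-like factors are transcription factors with a zinc finger DNA-binding domain, and 8 of their genes expressed in myeloid cells (Klf2, Klf3, Klf4, Klf6, Klf7, Klf9, Klf10 and Klf13) were followed in RNA-seq of the myeloid cells of tumor-bearing mice. They were selected by gene symbol from the 55421 genes counted, as the family members of these cells, and all 8 passed the filter on low counts in every comparison. Klf1 was left out as a gene of the erythroid lineage. Because the 8 genes were picked with their expression in these libraries known, their levels are a description. Increases of Klf2, Klf4 and Klf7 in TAM were also known beforehand, so changes of these 3 genes that rest on the Shp2f/fLysMcre TAM are given with no p-value.

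The 10 libraries came from mice bearing MC17-51 fibrosarcomas, 15 days after implantation. All mice carried floxed alleles of Ptpn11, the gene of the phosphatase SHP-2, and Shp2f/fLysMcre mice also carried Cre recombinase under the lysozyme M promoter, which is active in granulocytes, monocytes and macrophages. Myeloid-derived suppressor cells (MDSC) were taken from the spleen with magnetic beads by their Gr-1 staining (2 libraries for each genotype), and the study calls them PMN-MDSC, a fraction that its methods define as Ly6G+Ly6C-. Tumor-associated macrophages (TAM) were sorted from the collagenase-digested tumors of the same mice as CD45+CD11b+F4/80+Ly6G- cells (3 libraries for each genotype). Total counts were 28844660 to 38222998 a library. Whether a library pooled several mice, and whether replicates were separate mice, was not stated, so p-values measure the spread between these libraries.

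Several measurements bear on the groups. The control TAM had Ptpn11 at 122.4 ± 2.39 CPM and the Shp2f/fLysMcre TAM at 53.0 ± 1.81 CPM (SD, n = 3 each), while the MDSC of these genotypes were at 106.2 ± 9.87 and 87.2 ± 10.7 CPM (SD, n = 2 each). CPM are counts scaled to a common library size, here with TMM factors (trimmed mean of M-values) set over all 10 libraries. Summed CPM of gene lists were scaled by total counts only, without these factors. Xist, the transcript of the inactive X chromosome, was at most 18.1 CPM in every Shp2f/f library and at least 119.1 CPM in every Shp2f/fLysMcre library, so sex and genotype cannot be told apart. TAM expressed the macrophage gene Adgre1 (F4/80) at a mean of 650.5 CPM in Shp2f/f and 981.6 CPM in Shp2f/fLysMcre. The MDSC libraries held both neutrophil and monocyte transcripts. In Shp2f/f MDSC the neutrophil genes S100a8, S100a9 and Mmp8 were at 3330, 3210 and 753.5 CPM, and the monocyte genes Ccr2 and Ly6c2 at 1933 and 497.8 CPM. Ly6g was at only 10.4 CPM in Shp2f/f and 31.5 CPM in Shp2f/fLysMcre MDSC. The low Ly6g and the Ly6c2 level go against that Ly6G+Ly6C- definition at the level of transcripts, while other neutrophil genes were high. In MDSC of Shp2f/fLysMcre mice, 6 fibroblast or stroma genes summed to 11.5 CPM in 1 replicate and 500.4 CPM in replicate 2. Each MDSC result is therefore also given without a replicate where that changed it.

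Members of this family bind GC-rich and CACCC elements and fall into groups by the partners they recruit. KLF2, KLF4, KLF6 and KLF7 act mostly as activators, KLF3 recruits the corepressor CtBP, and KLF9, KLF10 and KLF13 recruit the Sin3 corepressor. In myeloid cells KLF2 is known to restrain inflammatory activation, KLF4 to drive monocyte differentiation and alternative macrophage activation, and KLF6 to work with NF-κB at inflammatory genes. Several of the genes, Klf2, Klf4, Klf6 and Klf10 among them, are known for rapid induction after a stimulus, and Klf2 transcription is known to be driven by the kinase ERK5 through MEF2 factors.

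In the GRCm38 annotation, the activator genes were Klf2 (ENSMUSG00000055148) on chromosome 8 from 72319033 to 72321656, Klf4 (ENSMUSG00000003032) on chromosome 4 from 55527143 to 55532466, Klf6 (ENSMUSG00000000078) on chromosome 13 from 5861482 to 5870394 and Klf7 (ENSMUSG00000025959) on chromosome 1 from 64029447 to 64122282. The gene of the CtBP-recruiting member was Klf3 (ENSMUSG00000029178) on chromosome 5 from 64803388 to 64832901. Those of the Sin3-recruiting members were Klf9 (ENSMUSG00000033863) on chromosome 19 from 23141226 to 23168134, Klf10 (ENSMUSG00000037465) on chromosome 15 from 38291463 to 38300706 and Klf13 (ENSMUSG00000052040) on chromosome 7 from 63886351 to 63938915. Klf4, Klf7, Klf10 and Klf13 lie on the minus strand. All are protein-coding.

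The sequences just upstream of the start sites are shown for Klf2, the gene with the greatest genotype effect of the 8 in TAM, and for Klf4 and Klf6, the pair whose levels followed each other most closely. They are RefSeq promoter sequences of GRCm38.p6, written on the strand of the gene, which held 7 of the 8 genes (Klf10 had no entry). Capitals mark a MEF2 site and GC boxes (GGGCGG on either strand).
Klf2 (chr8:72318812-72319032, + strand): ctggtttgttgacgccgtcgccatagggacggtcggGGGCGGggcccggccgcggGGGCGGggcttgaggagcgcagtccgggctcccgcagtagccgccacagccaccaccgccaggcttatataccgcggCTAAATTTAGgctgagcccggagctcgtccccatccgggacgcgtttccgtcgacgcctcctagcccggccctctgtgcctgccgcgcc
Klf4 (chr4:55532476-55532725, - strand): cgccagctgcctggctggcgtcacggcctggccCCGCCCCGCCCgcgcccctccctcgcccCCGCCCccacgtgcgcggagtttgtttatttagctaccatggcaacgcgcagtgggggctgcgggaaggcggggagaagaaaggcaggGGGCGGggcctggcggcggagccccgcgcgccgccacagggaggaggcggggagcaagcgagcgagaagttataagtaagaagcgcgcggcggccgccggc
Klf6 (chr13:5861239-5861481, + strand): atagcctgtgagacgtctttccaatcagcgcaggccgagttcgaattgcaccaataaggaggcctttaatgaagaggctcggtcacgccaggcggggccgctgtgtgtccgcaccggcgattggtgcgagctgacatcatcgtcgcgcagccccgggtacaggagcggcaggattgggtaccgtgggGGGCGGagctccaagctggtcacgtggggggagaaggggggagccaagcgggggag
In windows of 250 bases before to 50 bases after the start site, the Klf2 promoter held a MEF2 site, CTAAATTTAG, at -118 to -109. None of the other 6 promoters held one, and 3.16% of 32544 promoters did. GC boxes were found in 6 of the 7 promoters, against 35.9% of all, with 2 in Klf2, 6 in Klf3, 4 in Klf4, 1 each in Klf6 and Klf7, 3 in Klf13 and 0 in Klf9. The CACCC element, searched on both strands, was present in 5 of the 7 and in 57.7% of all promoters. The CArG box bound by serum response factor (1.64% of all) and TATAAA (13.6% of all) were in none of the 7. GC boxes of Klf4 overlapped each other, and no match shows that a factor bound.

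The most abundant of the 8 genes was Klf2 in MDSC of both genotypes and Klf6 in TAM of both genotypes. Levels of different genes are compared as RPKM, CPM per kilobase of exon. In Shp2f/f MDSC the order was Klf2 (146.0 RPKM), Klf13 (93.3), Klf6 (85.9), Klf4 (51.1), Klf3 (21.9), Klf10 (16.4), Klf7 (5.23) and Klf9 (3.53), and no neighbors overlapped between the 2 libraries. MDSC of Shp2f/fLysMcre mice kept this order, from 124.3 RPKM for Klf2 to 3.40 RPKM for Klf9, with Klf13 and Klf6 overlapping. In Shp2f/f TAM the order was Klf6 (233.5 RPKM), Klf4 (160.9), Klf2 (43.9), Klf13 (33.0), Klf10 (19.4), Klf7 (15.4), Klf3 (6.90) and Klf9 (2.701), again without overlap of neighbors. In Shp2f/fLysMcre TAM, Klf6 reached 431.4 RPKM, Klf4 252.7 and Klf2 180.7, followed by Klf13 at 32.1. Klf7 (19.9 RPKM) and Klf10 (18.5 RPKM) overlapped there, and Klf3 (10.5) and Klf9 (3.22) were the lowest.

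Klf2, Klf4 and Klf6 together made up 66.8% of the summed RPKM of the 8 genes in Shp2f/f MDSC and 66.2% in Shp2f/fLysMcre MDSC. In TAM their share was 85.0% in Shp2f/f and 91.1% in Shp2f/fLysMcre. The summed RPKM of all 8 was 423.3 and 356.2 in the MDSC genotypes, 515.9 in Shp2f/f TAM and 949.1 in Shp2f/fLysMcre TAM. Scaled by total counts, the other 9 genes of the family summed to 58.5 to 127.9 CPM a library and the 8 genes to 1596 to 3484 CPM. Klf14 and Klf17 had no count in any library.

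**Figure D1:**
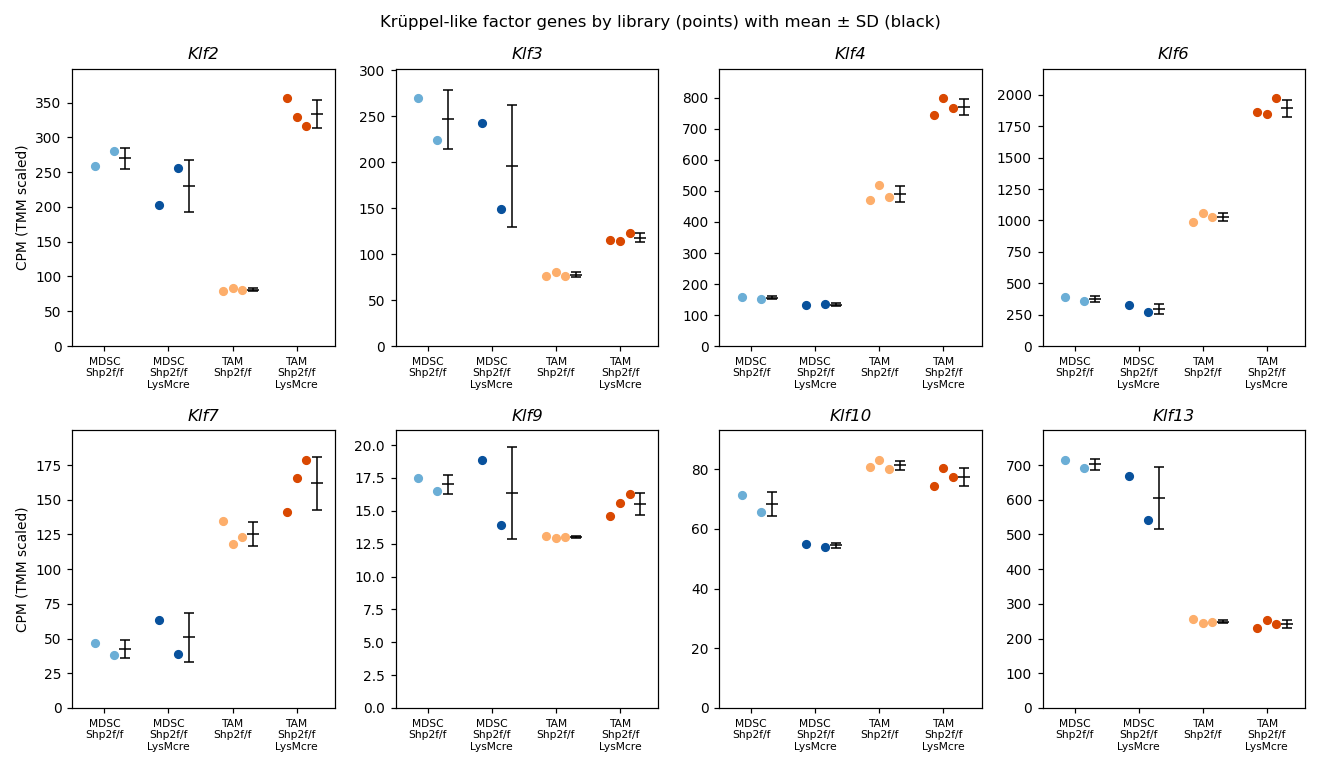
CPM after TMM scaling (y axis, linear, from 0) of the 8 Krüppel-like factor genes in every library of the 4 groups (x axis), with 1 point a library and the group mean ± SD in black (n = 2 for MDSC, n = 3 for TAM). Klf2 is lowest in the Shp2f/f TAM (79.1 to 83.9 CPM) and highest in the Shp2f/fLysMcre TAM (315.9 to 356.1 CPM), while Klf4 and Klf6 are higher in all TAM than in all MDSC and Klf13 lower.

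The first comparison asked how expression in TAM differed when SHP-2 was targeted in myeloid cells. Klf2, Klf3, Klf4, Klf6, Klf7 and Klf9 were higher in Shp2f/fLysMcre than in Shp2f/f TAM, Klf10 was lower and Klf13 did not pass the edgeR quasi-likelihood test. That is 6 of 8 higher and 1 of 8 lower, where 23.9% and 26.3% of the 14446 genes tested were higher and lower (50.2% in all). Without Klf2, Klf4 and Klf7, whose increase was known, 3 of 5 were higher. The groups did not overlap for 6 of the 8 genes and for 57.9% of all genes. The median log2 fold change of the 8 was 0.45, beside -0.01 over all genes tested.

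Among the activators, Klf2 was at 79.1, 83.9 and 80.1 CPM in the Shp2f/f TAM and at 356.1, 329.4 and 315.9 CPM in the Shp2f/fLysMcre TAM. Every Shp2f/fLysMcre library was thus far above every control, and the fitted change was 4.02-fold (log2 fold change 2.01, SE 0.0493, 95% interval 1.90 to 2.12). Fold changes came from fits within each comparison, with their own scaling, and can differ slightly from ratios of the printed means. Klf4 was at 471.9, 518.7 and 481.5 CPM in Shp2f/f and at 745.6, 798.9 and 767.2 CPM in Shp2f/fLysMcre TAM, without overlap (log2 fold change 0.62, SE 0.0426, 95% interval 0.52 to 0.71). Klf6 had the highest values of the 8 genes in CPM, 991.7, 1056 and 1029 against 1865, 1845 and 1973. It rose 1.80-fold (log2 fold change 0.85, SE 0.0380, edgeR adjusted p = 3.42e-08). Klf7 was at 134.8, 117.9 and 123.1 CPM in Shp2f/f and 141.0, 165.7 and 178.5 CPM in Shp2f/fLysMcre TAM. Its groups were separated by the gap between 134.8 and 141.0 CPM only, and the log2 fold change was 0.33 (SE 0.0798, 95% interval 0.16 to 0.51). Scaled by total counts without TMM factors, the Klf7 groups overlapped, with replicate 1 at 137.9 CPM in Shp2f/f and 129.3 CPM in Shp2f/fLysMcre.

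Klf3, the member that recruits CtBP, was at 76.7, 80.4 and 75.6 CPM in the control TAM and 115.7, 113.9 and 123.4 CPM in the Shp2f/fLysMcre TAM. All Shp2f/fLysMcre values were above the controls (log2 fold change 0.56, SE 0.0434, edgeR adjusted p = 1.36e-06). Klf3 shares 404 exon bases with Gm20033 on the opposite strand, which had 246 counts over all libraries beside 51199 for Klf3. Klf9, a gene known for induction by glucocorticoids, was at 13.1, 12.93 and 12.98 CPM against 14.6, 15.6 and 16.3 CPM (log2 fold change 0.22, SE 0.0612, edgeR adjusted p = 0.012). With scaling by total counts its log2 fold change was 0.12 (edgeR adjusted p = 0.141), so its increase was lost. Klf10, known as an early gene induced by TGF-β, overlapped between the groups, at 80.6, 83.0 and 80.2 CPM against 74.4, 80.4 and 77.4 CPM. It fell by 0.11 on the log2 scale (SE 0.0392, edgeR adjusted p = 0.0429), a call lost in 11 of 13 alternatives, among them the DESeq2 test (adjusted p = 0.137). Klf13, known as a regulator of Ccl5 in T cells, was at 254.8, 245.2 and 246.6 CPM against 230.7, 254.7 and 240.9 CPM, with overlap. Its log2 fold change was -0.08 (SE 0.0438, 95% interval -0.17 to 0.02, edgeR adjusted p = 0.176), and with scaling by total counts -0.17 (edgeR adjusted p = 0.00733).

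Of the 9 other Krüppel-like factors, 4 passed the filter in TAM, of which Klf11 rose and Klf16 and Klf8 fell. Klf11, another Sin3-recruiting member, went from 34.4 ± 1.79 to 40.2 ± 0.867 CPM (SD, n = 3 each; log2 fold change 0.19, edgeR adjusted p = 0.00922). Klf16 went from 23.6 ± 1.06 to 18.7 ± 0.595 CPM (log2 fold change -0.37, edgeR adjusted p = 0.000121). Klf8 is named after its values were seen, at 3.11 ± 0.351 and 1.82 ± 0.236 CPM. In the related Sp family, 2 of 4 tested genes were higher in Shp2f/fLysMcre TAM and none lower, with Sp3 at a log2 fold change of 0.11 (edgeR adjusted p = 0.0444). The median of the Sp genes was 0.11.

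The same comparison in MDSC gave no call among the 8 genes. The background was 4.28% of 14806 genes (3.76% higher and 0.52% lower), and 0 of the 8 genes passed by edgeR and also by DESeq2. At an unadjusted p under 0.05, edgeR had 1 of the 8, Klf10. Of the log2 fold changes, 7 were below 0 and 1 above, with a median of -0.23 beside -0.01 over all genes. The groups did not overlap for 5 of the 8 genes, beside 48.9% of all genes.

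Klf2 was at 259.1 and 280.1 CPM in Shp2f/f MDSC and at 203.4 and 255.9 CPM in Shp2f/fLysMcre MDSC. The groups did not overlap, and the log2 fold change was -0.24 (SE 0.146, 95% interval -0.60 to 0.13, edgeR adjusted p = 0.467). Without Shp2f/fLysMcre replicate 2 it was -0.40 (edgeR adjusted p = 0.0131). Klf4 was at 159.4 and 152.0 CPM against 131.0 and 136.5 CPM, also without overlap (log2 fold change -0.22, 95% interval -0.50 to 0.05, edgeR adjusted p = 0.348). Klf6, at 393.8 and 360.4 against 324.0 and 268.9 CPM, had a log2 fold change of -0.35 (95% interval -0.71 to 0.01, edgeR adjusted p = 0.271). Thus Klf6 was lower in both Shp2f/fLysMcre libraries but did not pass the test. Klf10 was at 71.2 and 65.6 CPM against 55.0 and 53.9 CPM (log2 fold change -0.33, 95% interval -0.60 to -0.07, edgeR adjusted p = 0.167).

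Klf3 was at 269.4 and 223.9 CPM in Shp2f/f and at 242.9 and 149.4 CPM in Shp2f/fLysMcre (log2 fold change -0.33, SE 0.255, edgeR adjusted p = 0.571). Klf13 was at 713.9 and 691.1 CPM against 667.5 and 542.2 CPM (log2 fold change -0.22, edgeR adjusted p = 0.506). Replicate 2 of Shp2f/fLysMcre was the lower for both genes, and also for Klf7 (47.1 and 37.9 against 63.3 and 38.5 CPM) and Klf9 (17.5 and 16.5 against 18.9 and 13.9 CPM). Klf7 had a log2 fold change of 0.26 (edgeR adjusted p = 0.683), which was -0.19 without Shp2f/fLysMcre replicate 1 and 0.58 without replicate 2 (edgeR adjusted p = 0.000752). For Klf9 it was -0.06 (edgeR adjusted p = 0.909), and 0.15 without replicate 2. Without Shp2f/fLysMcre replicate 1, Klf3, Klf6, Klf10 and Klf13 were lower, with log2 fold changes of -0.77, -0.53, -0.39 and -0.42, and the single library left was assumed to vary like the others. As replicate 2 is the library with 500.4 CPM of fibroblast or stroma transcripts, the calls without replicate 1 rest on that library. Its part in the results was not tested.

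Among the other family members, Klf1 was higher in Shp2f/fLysMcre MDSC, at 43.0 ± 6.06 against 17.4 ± 0.538 CPM (SD, n = 2 each; log2 fold change 1.30, edgeR adjusted p = 0.0183). This call did not hold when either Shp2f/f library was left out. A list of 6 erythroid genes summed to 230.4 to 246.2 CPM in Shp2f/f and 506.1 to 625.7 CPM in Shp2f/fLysMcre MDSC. Klf5, named after its values were seen, was at 2.49 ± 0.543 and 9.82 ± 0.441 CPM (SD, n = 2 each). The summed level of 8 neutrophil genes was 8836 to 8948 CPM in Shp2f/f and 22125 to 24248 CPM in Shp2f/fLysMcre MDSC. That of 6 monocyte genes was 8509 to 8743 and 6043 to 7785 CPM. Of the 8 neutrophil genes 4 were called, all higher, and of the 6 monocyte genes 0, where 4.28% of all genes were called. The neutrophil calls did not hold when either Shp2f/f library was left out. Most of the neutrophil sum was S100a8 (3330 and 8236 CPM) and S100a9 (3210 and 9950 CPM). The part of these differences in the values of the 8 Krüppel-like factor genes was not tested. In such bulk samples fewer cells of a type and less RNA per cell cannot be told apart.

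**Figure D2:**
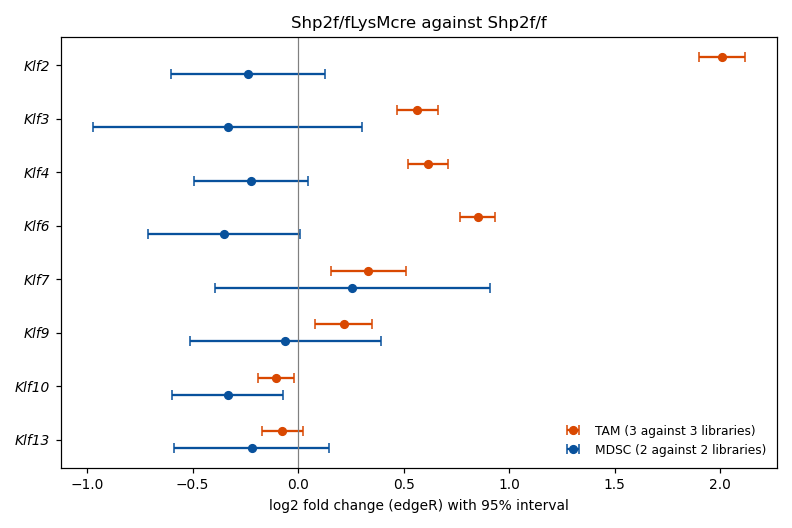
Log2 fold change of Shp2f/fLysMcre against Shp2f/f (x axis) for the 8 genes (y axis) in TAM (orange) and MDSC (blue), as the edgeR estimate with its 95% interval. In TAM the estimates run from -0.11 for Klf10 to 2.01 for Klf2, and in MDSC 7 of the 8 are below 0 with wider intervals.

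Whether the genotype effect of a gene was unequal in TAM and MDSC was tested by the interaction term of a fit to the 10 libraries. This term was positive for all 8 genes, and passed for 5 (Klf2, Klf3, Klf4, Klf6 and Klf10), where 12.2% of 16581 genes passed in this direction, 12.7% in the other and 24.9% in all. With the known genes left out, 3 of 5 passed. The targeted gene Ptpn11 itself was at 122.4 and 53.0 CPM in TAM of the 2 genotypes and at 106.2 and 87.2 CPM in MDSC. The part of this unequal reduction in the interaction was not tested. For Klf2 the effects differed by 2.27 on the log2 scale (SE 0.138, 95% interval 1.96 to 2.58), and for Klf4 by 0.87 (SE 0.0907, 95% interval 0.67 to 1.07). Klf6 differed by 1.23 (SE 0.120, edgeR adjusted p = 8.8e-05), which passed in all 17 alternatives with values of 1.06 to 1.38. Klf3 differed by 0.93 (SE 0.236, edgeR adjusted p = 0.0179). This did not pass without MDSC Shp2f/f replicate 1 (0.80, edgeR adjusted p = 0.0892). For Klf10 the difference was 0.26 (SE 0.0822, edgeR adjusted p = 0.0457), beside separate estimates of -0.11 in TAM and -0.33 in MDSC. The MDSC estimate did not pass on its own, and the call of the interaction was lost in 13 of 17 alternatives. Klf7, at 0.11, had a 95% interval of -0.49 to 0.70, which covers differences of either sign. Klf9 (0.31, 95% interval -0.06 to 0.68, edgeR adjusted p = 0.205) and Klf13 (0.18, 95% interval -0.10 to 0.45, edgeR adjusted p = 0.331) did not pass. Without MDSC Shp2f/fLysMcre replicate 2, the library with stroma transcripts, the differences were 2.45 for Klf2, 0.62 for Klf3, 0.90 for Klf4 and 1.10 for Klf6, and Klf10 no longer passed (0.24, edgeR adjusted p = 0.0774).

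TAM were then compared with MDSC within each genotype. Cell type, organ, tissue digestion and isolation method go together here and cannot be told apart. Both cell types came from the same mice, but which libraries shared a mouse was not stated, so they were tested as unpaired. In Shp2f/f cells, Klf4, Klf6, Klf7 and Klf10 were higher in TAM and Klf2, Klf3, Klf9 and Klf13 lower, each without overlap of libraries. That is 8 of 8 called, where 78.8% of 15659 genes were called (40% higher, 38.8% lower) and 86% did not overlap. The greatest differences on the log2 scale were those of Klf2 (-1.74, SE 0.0493, edgeR adjusted p = 1.17e-09), Klf3 (-1.67, SE 0.0738, edgeR adjusted p = 2.66e-08) and Klf4 (1.65, SE 0.0568, edgeR adjusted p = 4.28e-09). Klf7 was 2.94-fold higher in TAM (log2 1.56), Klf6 2.71-fold higher (log2 1.44), and Klf13 differed by -1.50 on the log2 scale. The edgeR adjusted p of these 3 was at most 2.97e-07. Klf9 (-0.39, edgeR adjusted p = 0.00047) and Klf10 (0.25, edgeR adjusted p = 0.00154) differed least. Klf3 and Klf13 were higher in every MDSC library (149.4 CPM or more and 542.2 CPM or more) than in every TAM library (123.4 CPM or less and 254.8 CPM or less).

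In Shp2f/fLysMcre cells 5 of 8 genes were higher in TAM than in MDSC and 2 lower, where 63.5% of 15741 genes were called (29.8% higher, 33.7% lower) and 77.7% did not overlap. Klf2 was on the other side here, at 315.9 to 356.1 CPM in TAM and 203.4 to 255.9 CPM in MDSC (log2 fold change 0.55, SE 0.118, 95% interval 0.26 to 0.84). With scaling by total counts it was 0.34 and no longer passed. Klf4 (2.53, 95% interval 2.33 to 2.73) and Klf6 (2.68, SE 0.119, edgeR adjusted p = 1.87e-05) were further apart than in Shp2f/f cells. This is the same contrast as the interaction above. Klf7 was 1.68 higher on the log2 scale, and Klf10 0.52 higher (edgeR adjusted p = 0.00144). Klf3 (-0.73, SE 0.200, edgeR adjusted p = 0.021) and Klf13 (-1.31, edgeR adjusted p = 0.000204) were lower in TAM, and the call of Klf3 was lost when any 1 TAM library was left out (edgeR adjusted p up to 0.0738). Klf9 had a log2 fold change of -0.07 (95% interval -0.45 to 0.31) with overlapping libraries. Without MDSC replicate 2, the log2 fold change of Klf9 was -0.30 (edgeR adjusted p = 0.026), that of Klf2 0.70 and that of Klf3 -1.06, and the other 5 genes kept their sign and call.

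**Figure D3:**
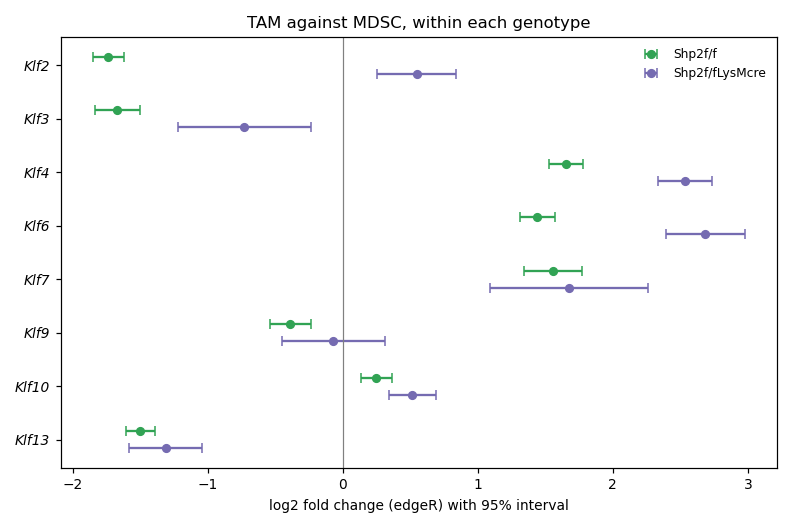
Log2 fold change of TAM against MDSC (x axis) for the 8 genes (y axis) within Shp2f/f (green) and Shp2f/fLysMcre (purple), as the edgeR estimate with its 95% interval. Klf2 lies at -1.74 in Shp2f/f and at 0.55 in Shp2f/fLysMcre, while the estimates of the other 7 have the same sign in both genotypes.

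Genes around the family were read from lists of known regulators, cofactors and targets. These lists, and those that follow, were chosen with earlier results of these data known. Their counts, and the adjusted p-values of the genes named from them, are therefore a description. Over all genes tested, 23.9% were higher and 26.3% lower in Shp2f/fLysMcre TAM, and 4.28% were called in MDSC. The upstream list held 11 genes of the ERK5 and MEF2 route to Klf2 with its class IIa histone deacetylases and Foxo1. In TAM 5 of the 11 were higher in Shp2f/fLysMcre and none lower (median log2 fold change 0.14). Hdac7, a class IIa deacetylase that represses MEF2, went from 19.98 ± 1.39 to 30.3 ± 1.71 CPM (log2 fold change 0.57, edgeR adjusted p = 2e-05). Mapk7, which encodes ERK5, went from 39.8 ± 0.940 to 53.8 ± 1.65 CPM (log2 fold change 0.40, edgeR adjusted p = 1.77e-05). Map3k3, an upstream kinase of ERK5, went from 111.8 ± 4.64 to 142.3 ± 3.13 CPM (log2 fold change 0.31, edgeR adjusted p = 6.69e-05; SD, n = 3 for each). In MDSC 0 of the 11 were called. The interaction was called higher in TAM for 6 of the 11, where 12.2% of all genes were, with a median of 0.40.

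Of 9 corepressor genes, 4 were lower in Shp2f/fLysMcre TAM. Hdac2, a Sin3-associated deacetylase, fell from 76.8 ± 3.50 to 58.0 ± 4.92 CPM (log2 fold change -0.44, edgeR adjusted p = 8.46e-05) and Ctbp2 from 67.5 ± 3.295 to 60.8 ± 0.301 CPM (log2 fold change -0.19, edgeR adjusted p = 0.00327; SD, n = 3 for each). The median of the 9 was -0.08. In MDSC 0 of the 9 were called.

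Of 5 genes known to be activated by KLF2, 4 were tested in TAM, with 2 higher and 1 lower. S1pr1, the receptor for sphingosine 1-phosphate, went from 5.36 ± 0.489 to 15.1 ± 0.782 CPM (log2 fold change 1.46, edgeR adjusted p = 1.57e-07). Thbd, which encodes thrombomodulin, went from 48.3 ± 0.682 to 88.2 ± 0.622 CPM (log2 fold change 0.83, edgeR adjusted p = 3.53e-08). Itgb7, the integrin β7 gene, went the other way, from 81.8 ± 0.608 to 64.6 ± 3.96 CPM (log2 fold change -0.37, edgeR adjusted p = 4.23e-05; SD, n = 3 for each). In MDSC 0 of 5 were called, and the interaction passed for Thbd (1.21, edgeR adjusted p = 6.8e-05).

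Other transcripts moved with the genotype in TAM. Of 16 immediate early and stress genes, a list chosen with earlier results known, 15 were higher in Shp2f/fLysMcre TAM, where 23.9% of all genes were. Their median log2 fold change was 0.91. In MDSC 0 of the 16 were called, where 4.28% of all genes were. Scaled by total counts, their summed level was 8112 to 8344 CPM in Shp2f/f TAM and 14185 to 14544 CPM in Shp2f/fLysMcre TAM. In MDSC of both genotypes it was 5812 to 6923 CPM. The largest changes were those of Hspa1a (log2 fold change 1.91, edgeR adjusted p = 8.26e-09), Jun (1.28, edgeR adjusted p = 3.44e-09) and Atf3 (1.28, edgeR adjusted p = 2.2e-09), and reads of Hspa1a can be shared with its near-identical copy Hspa1b. All 8 macrophage markers were higher too (summed 7236 to 7470 and 9389 to 9936 CPM). Of 8 T and NK cell genes 7 were lower, where 26.3% of all genes were. They summed to 11.3 to 12.4 CPM in Shp2f/f and 4.96 to 5.86 CPM in Shp2f/fLysMcre TAM, with group means of at most 3.48 CPM a gene. For endothelial cells, which express Klf2 and Klf4 strongly, 8 marker genes summed to 45.1 to 47.0 and 51.8 to 56.9 CPM. Most of this was Kdr (35.8 and 48.2 CPM), and 2 of the 6 tested genes were higher. The 6 fibroblast or stroma genes summed to 256.0 to 260.6 and 222.1 to 231.7 CPM. Of the neutrophil genes, 5 of 7 tested were higher (median log2 fold change 0.54; 8 genes summed to 297.1 to 306.9 and 434.5 to 460.3 CPM). Of 6 monocyte genes, 3 were higher and 2 lower. B cell genes (1 of 3 tested higher) summed to at most 10.7 CPM and erythroid genes (2 of 3 tested higher) to at most 9.95 CPM in any TAM library. The part of these changes in the values of the Krüppel-like factors was not tested.

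**Figure D4:**
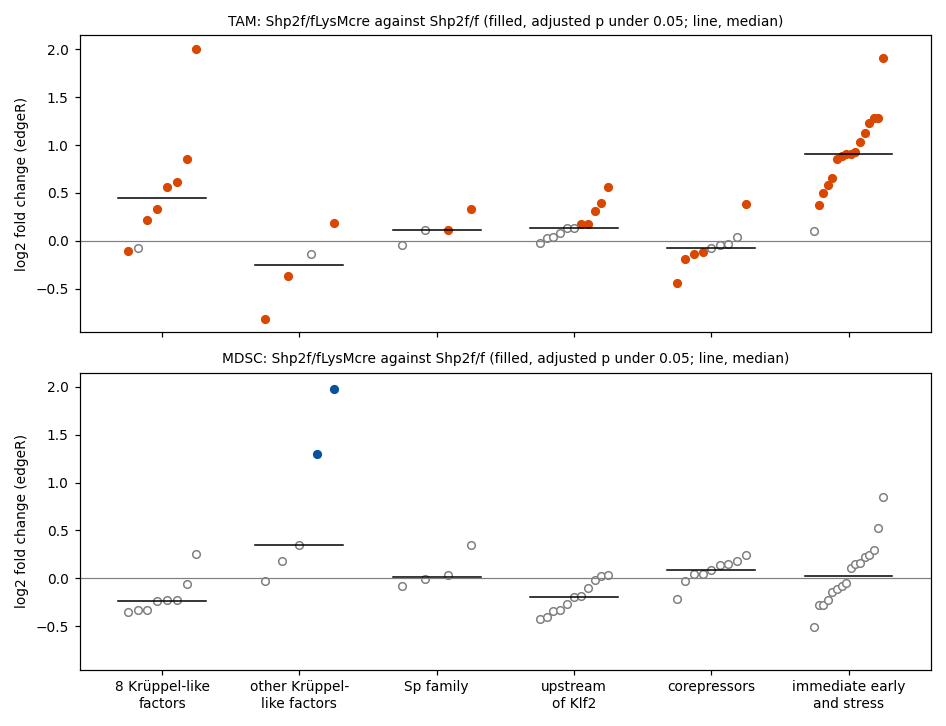
Log2 fold change of Shp2f/fLysMcre against Shp2f/f (y axis) in TAM (top) and MDSC (bottom) for the genes of 6 lists (x axis), 1 point a gene, filled where the edgeR adjusted p was under 0.05, with the list median as a line. In TAM the 8 Krüppel-like factors have a median of 0.45 and the immediate early and stress genes one of 0.91, and in MDSC no gene of these 2 lists is filled.

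Likeness of pattern was measured as the root mean square difference of log2 CPM, each gene centered on its own mean, over the 10 libraries, among the 8846 genes that averaged 10 CPM or more. It is a description, as libraries of a group share their group. Klf2 was nearest to Spic (0.250), which encodes a transcription factor of iron-recycling macrophages, then to Arrdc3 (0.350) and F7 (0.384), the coagulation factor VII gene. Klf4 was nearest to Zfp703 (0.0692), Slc2a1 (0.0826), which encodes the glucose transporter GLUT1, and Nacc2 (0.0829). Within the 8 genes, Klf4 and Klf6 were the nearest pair (0.131), followed by Klf3 and Klf13 (0.299) and by Klf9 and Klf10 (0.345). Klf7 was nearest to Klf4 (0.354). Klf2 stood furthest from the others, with Klf3 as the nearest at 0.678.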

How the data were processed

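RNA-seq counts of 10 libraries in 4 groups (cell type and genotype, from the sample titles) were analyzed. Per the labels and the study's methods, the authors made stranded poly(A) libraries, trimmed reads with cutadapt 2.5, aligned them to GRCm38 with STAR 2.7.3a and assigned them to genes with featureCounts (Subread 1.6.2). The authors deposited raw counts per gene. The strand setting and the handling of multi-mapping reads were not given in the sources used here. Their table of values normalized with DESeq2 1.24.0 was not used. GENCODE release 21 of mouse (GRCm38) named 99.67% of the 55421 genes.

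For the tests, edgeR 4.0.16 (R 4.3.3) was run on the counts after filterByExpr (minimum count 10) and TMM scaling, by quasi-likelihood F test within each cell type, within each genotype and as an interaction over all 10 libraries, with Benjamini-Hochberg adjustment over all genes tested and a threshold of 0.05. Intervals are 95% intervals from the fit. The script was tested on simulated data. Replicates differed beyond sampling noise (chi-square 4.63 to 64.5 per degree of freedom), and total counts were 28844660 to 38222998. Biological coefficients of variation were 0.0595 in TAM and 0.189 in MDSC.

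The 8 genes and all lists were chosen with earlier results of these data known. All 8 are named throughout. From the other lists, at most 3 called genes a comparison, of at least 10 CPM, were named by the largest absolute change, and 3 nearest genes for Klf2 and Klf4. The result of 1 gene that this rule selected in the corepressor list is not reported here. Alternatives were DESeq2 1.42.0, its size factors in edgeR, total-count scaling, 2 filters on low counts, a replicate block, 1 fit of all libraries, limma 3.58.1 voom and leaving out each replicate.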

Additional observations from a re-analysis of the deposited data

Results flagged for a closer look

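For 5 of the 8 genes the genotype effect differed between TAM and MDSC in the test of that difference. The log2 differences, TAM minus MDSC, were 2.27 for Klf2, 0.93 for Klf3, 0.87 for Klf4, 1.23 for Klf6 and 0.26 for Klf10. Genes passing this test in either direction made up 24.9% of all genes tested. Increases of Klf2 and Klf4 in TAM were known beforehand, so their values are a description. With Klf2, Klf4 and Klf7 left out, 3 of 5 genes passed. The values of Klf2 and Klf4 were positive in all 17 alternatives, at 2.10 to 2.45 and 0.70 to 0.93. Klf6 passed in all 17, at 1.06 to 1.38. Klf3 passed in 15 of 17 and Klf10 in 4 of 17. Ptpn11 itself was less reduced in MDSC (106.2 to 87.2 CPM) than in TAM (122.4 to 53.0 CPM), and the part of this in the differences was not tested.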

How the results depend on the processing

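In TAM, the directions of all 8 genes were kept in all 13 alternatives, and the calls of Klf2, Klf3, Klf4 and Klf6 too. One fit of all 10 libraries called 4 of the 8 and 4837 genes in all, against 7 and 7257, and lost Klf7, Klf9 and Klf10. Leaving out 1 library gave 6 of the 8 and 6176 to 7317 genes. Total-count scaling shifted the median of all genes in TAM to -0.11 and the split to 2342 higher and 5227 lower (30.9% higher, from 47.6%). It shifted the interaction to a median of -0.18 with 1234 higher and 3132 lower (28.3%, from 49.1%), and TAM against MDSC in Shp2f/fLysMcre to -0.26 with 3696 and 6561 (36% higher, from 46.9%).

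In MDSC, 633 genes and 0 of the 8 were called. DESeq2 called 1256 genes, no filter 130, one fit of all libraries 2666 with 2 of the 8, and leaving out 1 library 1 to 4406 genes with 0 to 4 of the 8. For the interaction, leaving out 1 library gave 2446 to 7023 genes with 3 to 8 of the 8, against 4132 and 5. The counts of 4 and 8 came without MDSC Shp2f/fLysMcre replicate 1. Signs turned for Klf7 in MDSC (-0.19 to 0.58 over the libraries left out), Klf9 in MDSC (-0.34 to 0.15), Klf9 in TAM against MDSC of Shp2f/fLysMcre (-0.30 to 0.17) and the Klf7 interaction (-0.21 to 0.52, and -0.0513 with total counts). None of these 4 results passed with all libraries and TMM. The cause was not tested.

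Same-numbered libraries did not deviate together in TAM (correlations -0.0827 to 0.0644) or between the cell types (-0.146 to 0.0259). With 2 MDSC libraries a genotype, deviations mirror each other, so the 0.174 of both MDSC pairs is a single value. The numbers were not read as pairs, though this check cannot exclude pairing. With the replicate block, 2674 genes and 1 of the 8 (Klf10, -0.33) were called in MDSC, and 970 genes and 3 of the 8 in the interaction, without Klf3 and Klf10. The block also lost Klf10 in TAM and Klf2 in TAM against MDSC of Shp2f/fLysMcre (0.58), which scaling by total counts lost too (0.34). With 2 MDSC libraries a genotype, only changes well above the spread can pass.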
